A study of Mus musculus with 24 samples.

Results

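Microglia are the resident macrophages of the retina, and 9 genes that mark them or that they express strongly were followed across mouse strains: Cx3cr1, P2ry12, Tmem119, C1qa, C1qb, C1qc, Csf1r, Aif1 and Trem2. They were chosen by name as genes of microglia and of complement component C1q, and each matched 1 gene symbol, so that the group holds 9 of the 28802 genes in the table. The study asked which retinal genes go with refractive development and contrast perception in genetically diverse mice, and the comparison made here is the one between the strains themselves. Retinas of wild type mice at postnatal day 28 were sequenced as total RNA depleted of ribosomal RNA, with 3 libraries from each of 8 inbred strains. The strains were 129S1/Svlmj, A/J, C57BL/6J, NOD/ShiLtJ and NZO/HlLtJ, and the wild-derived CAST/EiJ, PWK/PhJ and WSB/EiJ, and no animal was treated. The labels give neither the sex of the mice nor any pooling, and the study's methods treat each library as a biological replicate.

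In the retina microglia sit between the neurons of the inner layers, extend processes that sense released nucleotides and chemokines, and depend for survival on signals through the CSF1 receptor. C1q is the recognition molecule of the classical complement pathway, is built from the products of C1qa, C1qb and C1qc, and binds cell debris, synapses and antibody, after which the proteases C1r and C1s cleave C4 and C2. In neural tissue microglia are its main source, and C1q is known for its part in the removal of synapses during development.

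The libraries held 57604300 to 78147600 reads, as the size of 1 read in the deposited values shows. Values are normalized read counts in cpm, a gene's reads scaled to a common library total, and 1 read corresponded to between 0.0128 and 0.0174 cpm. Each value of the 9 genes was a whole number of reads, within 0.1 read, in 24 of 24 libraries. The genes were expressed at low levels, from a mean of 0.0982 cpm for Aif1 to 2.57 cpm for Csf1r. Reads per library had a median of 156 for Csf1r (129 to 243), 86 for P2ry12 (52 to 159), 69 for Cx3cr1 (40 to 142) and 60 for C1qa (26 to 94). For C1qb the median was 40 reads (19 to 63), for C1qc 33.5 (6 to 80), for Tmem119 22.5 (13 to 39), for Trem2 16 (6 to 33) and for Aif1 6 (1 to 17). Only Aif1 fell under 3 reads, in 1 C57BL/6J library and 1 129S1/Svlmj library. Per kilobase of annotated exon, a scale for only a rough comparison of genes, C1qa had the highest mean level at 0.783 cpm. C1qb followed at 0.570, P2ry12 at 0.544 and Csf1r at 0.446. C1qc reached 0.277 cpm per kilobase, Cx3cr1 0.240, Tmem119 0.154, Aif1 0.0641 and Trem2 0.0484. These lengths count every annotated exon base once, whichever transcript is made. They were 1040 bases for C1qa, 1931 for C1qc and 4946 for Trem2, so the order depends on the annotation too.

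The tissue label was checked against markers. Of 15 genes of retinal neurons and Müller glia, 0 had a mean under 0.05 cpm in any strain, and the photoreceptor arrestin gene Sag had strain means from 917 (C57BL/6J) to 2210 cpm (NOD/ShiLtJ), so these defining markers were present in each strain. Of 12 further genes used to identify microglia, each was in the table and had a mean over 0.05 cpm over 24 libraries. By strain Fcrls was under this level in 129S1/Svlmj, NZO/HlLtJ, PWK/PhJ and WSB/EiJ, and Slc2a5 in 129S1/Svlmj. The mean sum of the 12 was lowest in CAST/EiJ and 129S1/Svlmj, at 11.7 cpm each, with the lowest single library in 129S1/Svlmj (9.64 cpm). It was highest in WSB/EiJ and NOD/ShiLtJ, at 15.7 cpm each, and A/J lay between, at 13.6 cpm. Of 18 genes of the wider myeloid lineage, only Ltc4s had a mean under 0.05 cpm over 24 libraries, and their sum ranged from 6.99 cpm in CAST/EiJ to 10.2 cpm in A/J. By contrast, 8 of 12 genes of monocytes and lymphocytes were in the table and summed to only 0.216 cpm in CAST/EiJ to 0.606 cpm in A/J. Of these, Ccr2, Plac8, S100a8, S100a9, Ms4a1 and Cd79a each had a mean under 0.05 cpm.

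Summed over the 9 genes, the A/J libraries were highest, at 10.9 ± 0.130 cpm (here and below, mean ± SD over 3 libraries). NOD/ShiLtJ followed at 9.16 ± 0.210 cpm and C57BL/6J at 8.71 ± 0.474 cpm. WSB/EiJ, NZO/HlLtJ, 129S1/Svlmj and PWK/PhJ lay close together, with means of 7.17, 6.95, 6.90 and 6.74 cpm. CAST/EiJ was lowest, at 5.10 ± 0.288 cpm, and its highest library, at 5.28 cpm, stayed under the lowest library of any other strain, 5.72 cpm in 129S1/Svlmj. These are bulk samples, in which fewer microglia and less RNA per microglial cell cannot be told apart. Reads of all strains were aligned to the same reference, which is based on C57BL/6J, and its effect on these sums was not tested.

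**Figure D1:**
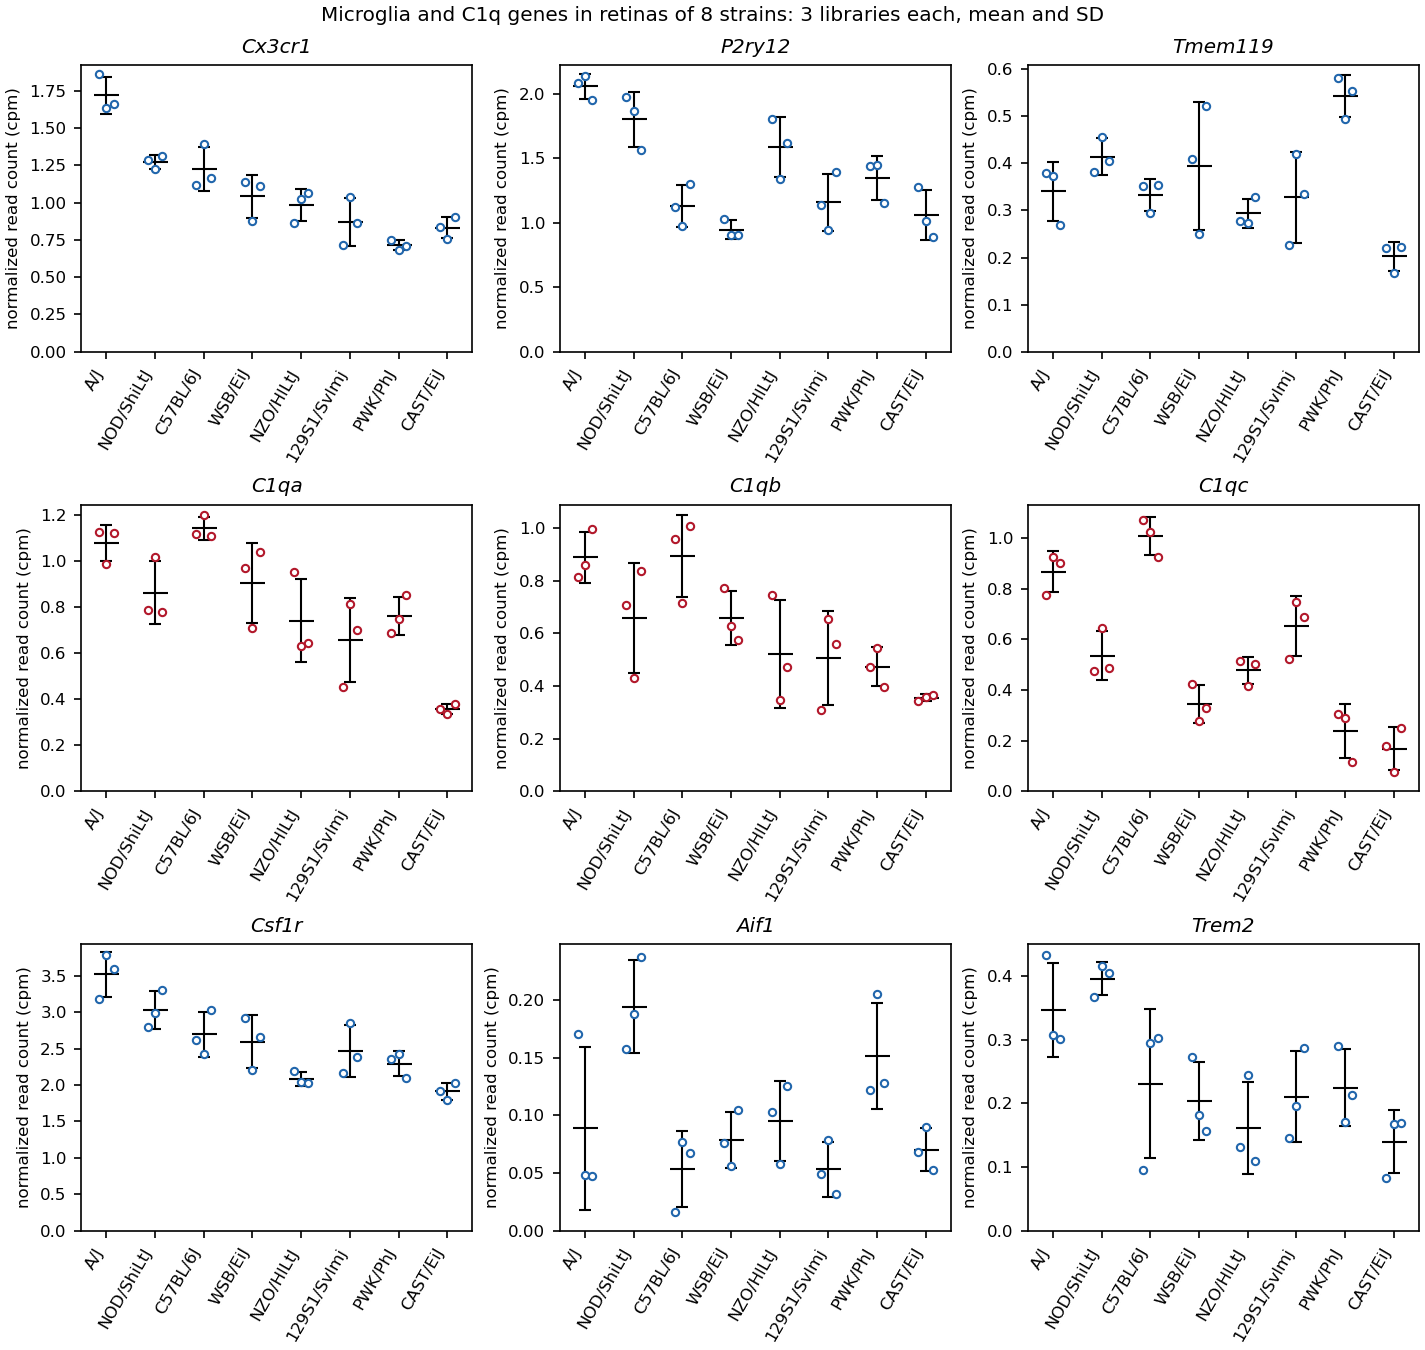
Normalized read count (cpm, vertical axis) of each of the 9 genes in the 8 strains (horizontal axis, ordered by the summed level of the 9 genes), with 1 open circle per library and bars for the mean and SD of 3 libraries; C1q genes are in red. A/J has the highest Cx3cr1, at 1.64 to 1.86 cpm, and CAST/EiJ the lowest C1qa, at 0.334 to 0.379 cpm.

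Differences were tested on the log2(cpm + 1) scale with limma, 1 mean per strain and a spread shared across strains, for the 16400 genes whose mean reached 0.5 cpm. Cx3cr1, P2ry12, Csf1r, C1qa, C1qb and C1qc passed this filter, and Tmem119, Trem2 and Aif1 did not. For these last 3 genes the values come from the same fit to all 28802 genes. A gene was called at a Storey q under 0.01. In the F-test over 8 strains 6 of the 6 tested members were called, as were 97.2% of the genes tested, so this count says nothing particular to them. Storey's method let F-test p-values of up to 0.466 through here, because almost every gene differed, and under the stricter Benjamini-Hochberg adjustment 70.6% of genes and again 6 of 6 members passed. The limma F-test's Benjamini-Hochberg adjusted p ran from 1.10e-08 for C1qc to 0.00107 for C1qb. With no filter 9 of 9 members were called, against 68.5% of all genes, and the adjusted p was 0.000969 for Tmem119, 0.00280 for Aif1 and 0.00376 for Trem2. For the contrasts of single strains and pairs the largest p called was 0.00858 and 0.00723.

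The difference between the highest and the lowest strain mean had a median of 0.66 on the log2(cpm + 1) scale over the tested members, against 0.43 over all genes tested. It was largest for C1qc (0.78) and smallest for C1qb (0.48). The share of a member's variance that lay between strains had a median of 84.5%, against 75.5% over all genes tested, and ranged from 69.5% for C1qb to 92.8% for C1qc. Among the 28 pairs of strains, C1qc was called in 18, Cx3cr1 in 15, P2ry12 in 13, C1qa and Csf1r in 12 each and C1qb in 8, together 78 calls, while 30.2% of such tests over all genes were called. In the fit with no filter, where 19.1% of such tests were called, the counts were 18 for C1qc, 14 for Cx3cr1, 11 for P2ry12, 9 for C1qa, 8 for Csf1r and 4 for C1qb.

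Each strain was then compared with the mean of the other seven. In A/J 6 of the 6 tested members were higher, against 15.7% of genes, and none was lower or on the lower side, where 13.1% of genes were called. In CAST/EiJ 6 of 6 were lower, against 26.2% of genes, and none was on the higher side (18.2% of genes). With a covariate for pigment epithelium RNA, described further on, 5 stayed higher in A/J, and 3 stayed lower in CAST/EiJ (Cx3cr1, C1qa and C1qc). C57BL/6J had 3 members higher, the C1q genes, against 14.0% of genes, and none lower (11.4% of genes), with 1 at an unadjusted p under 0.05. NOD/ShiLtJ also had 3 higher, but these were Cx3cr1, P2ry12 and Csf1r, against 16.3% of genes, and none on the lower side (9.97% of genes). PWK/PhJ had 2 members lower (C1qc and Cx3cr1), against 20.8% of genes, and none on the higher side (23.8% of genes). WSB/EiJ had 2 lower (P2ry12 and C1qc), against 21.4% of genes, and none higher (12.3% of genes), also at an unadjusted p under 0.05. NZO/HlLtJ had 1 lower (Csf1r), against 14.1% of genes, and none higher (13.5% of genes), with 1 at an unadjusted p under 0.05. 129S1/Svlmj had 1 lower (Cx3cr1), against 13.4% of genes, and none higher (15.1% of genes), with 1 at an unadjusted p under 0.05. The 8 contrasts share libraries, so a strain that is high lowers the others in comparison.

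**Figure D2:**
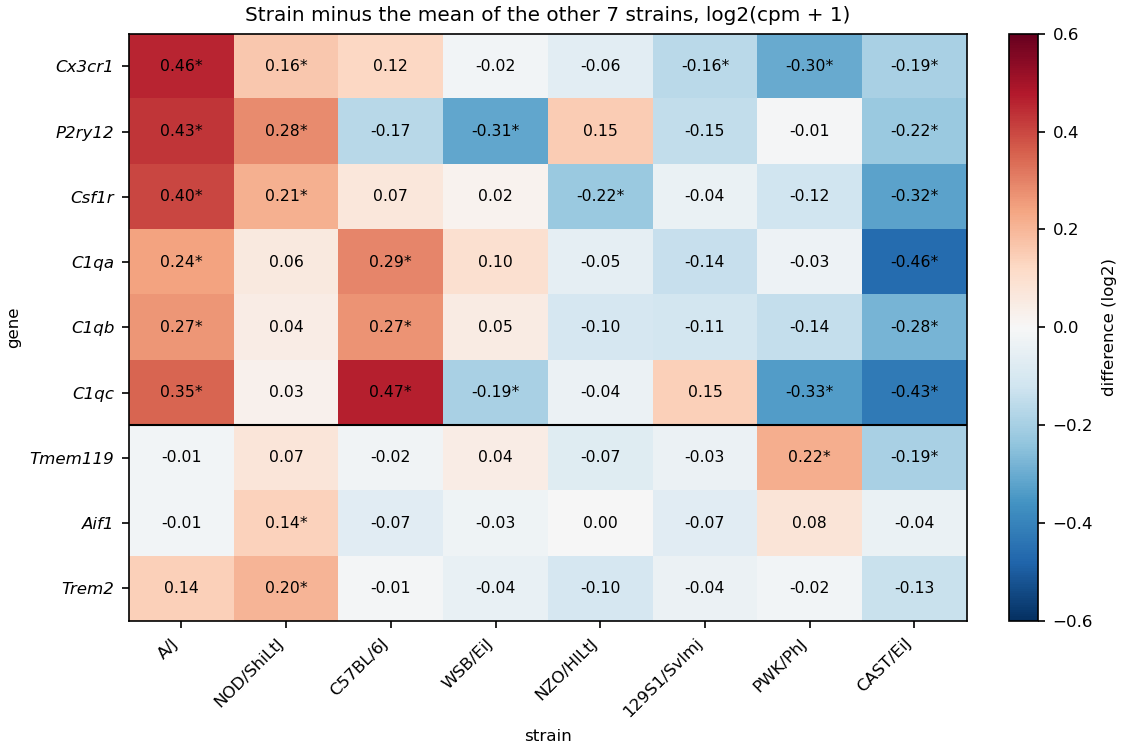
Difference of each strain (columns, ordered by the summed level of the 9 genes) from the mean of the other 7 strains on the log2(cpm + 1) scale, for each gene (rows), with an asterisk for a limma Storey q under 0.01; genes under the line come from the fit with no filter. In A/J the 6 upper genes lie between 0.24 and 0.46, and in CAST/EiJ between -0.46 and -0.19.

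Cx3cr1, the receptor for the chemokine fractalkine that neurons display and shed, separated A/J from the other strains. The A/J libraries held 1.86, 1.64 and 1.66 cpm, the NOD/ShiLtJ libraries 1.29, 1.22 and 1.31 cpm, and the C57BL/6J libraries 1.12, 1.39 and 1.16 cpm. In WSB/EiJ the values were 1.14, 0.877 and 1.11 cpm, in NZO/HlLtJ 0.864, 1.02 and 1.07 cpm, and in 129S1/Svlmj 0.715, 1.04 and 0.862 cpm. The lowest were 0.836, 0.758 and 0.901 cpm in CAST/EiJ and 0.749, 0.682 and 0.710 cpm in PWK/PhJ. Each A/J library was above each library of every other strain, whereas the remaining strains formed a graded series in which neighbours overlapped, apart from CAST/EiJ and PWK/PhJ at its end, which a narrow margin separated. The A/J mean of 1.72 ± 0.124 cpm was 2.41 times the PWK/PhJ mean of 0.714 ± 0.0335 cpm. A/J exceeded the other seven by 0.46 on the log2 scale (SE 0.05, 1.73-fold in cpm, limma Storey q = 1.17e-07), and PWK/PhJ fell below them by a difference of -0.30 (q = 2.93e-05). Of the 7 steps in the order of strains, the step from A/J to NOD/ShiLtJ alone was called in the limma pair contrasts (0.26, q = 0.00242). The calls in CAST/EiJ (-0.19, q = 0.00208), 129S1/Svlmj (-0.16, q = 0.00687) and NOD/ShiLtJ (0.16, q = 0.00706) were near the limit. Without CAST/EiJ replicate 2 the CAST/EiJ difference was -0.17 (q = 0.0184). The 129S1/Svlmj difference shrank to -0.10 (q = 0.0726) without replicate 1, and without replicate 3 it kept its size and lost its call (-0.16, q = 0.0222). The NOD/ShiLtJ difference kept about its size without replicates 1, 2 and 3 in turn (0.16, 0.18 and 0.15), with q = 0.0250, 0.0135 and 0.0304.

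P2ry12 encodes the receptor for ADP through which microglial processes find injured cells. Its values were 2.08, 2.14 and 1.95 cpm in A/J, 1.97, 1.87 and 1.56 cpm in NOD/ShiLtJ and 1.80, 1.34 and 1.62 cpm in NZO/HlLtJ. They were 1.27, 1.01 and 0.888 cpm in CAST/EiJ and 1.03, 0.905 and 0.903 cpm in WSB/EiJ. A/J was again highest but overlapped NOD/ShiLtJ, and WSB/EiJ rather than CAST/EiJ was lowest, with overlapping libraries. Between them PWK/PhJ had 1.35 ± 0.170 cpm, 129S1/Svlmj 1.16 ± 0.223 cpm and C57BL/6J 1.13 ± 0.162 cpm, and no step between neighbours was called. The difference from the other seven was 0.43 in A/J (SE 0.07, 1.60-fold, limma Storey q = 7.92e-06), 0.28 in NOD/ShiLtJ (q = 0.000705) and -0.31 in WSB/EiJ (0.654-fold, q = 0.000278). In CAST/EiJ it was -0.22 (q = 0.00413), and it was -0.21 (q = 0.0192) without CAST/EiJ replicate 2 and -0.16 (q = 0.0440) without replicate 3. P2ry12 was the only tested member that lay under the other seven in C57BL/6J (-0.17, q = 0.0203), and over them in NZO/HlLtJ (0.15, q = 0.0321), and neither difference was called.

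Csf1r, the receptor for CSF1 and IL-34 on which microglial survival depends, was the most abundant member by read count. The A/J libraries held 3.18, 3.79 and 3.59 cpm, the NOD/ShiLtJ libraries 2.80, 2.98 and 3.31 cpm and the CAST/EiJ libraries 1.92, 1.80 and 2.02 cpm. A/J and NOD/ShiLtJ overlapped at the top of the order. From there the strain means descended through C57BL/6J (2.69 ± 0.306 cpm), WSB/EiJ (2.59 ± 0.367), 129S1/Svlmj (2.47 ± 0.356), PWK/PhJ (2.29 ± 0.169) and NZO/HlLtJ (2.09 ± 0.0950) to CAST/EiJ (1.91 ± 0.113). No step between neighbours was called, although the highest mean was 1.84 times the lowest. A/J lay 0.40 above the other seven (SE 0.06, 1.44-fold, limma Storey q = 1.07e-05) and CAST/EiJ differed from them by -0.32 (0.717-fold, q = 0.000145). The differences in NOD/ShiLtJ (0.21, q = 0.00454) and NZO/HlLtJ (-0.22, q = 0.00311) each lost the call without either of 2 libraries. Without NOD/ShiLtJ replicate 2 the difference was as large (0.22, q = 0.01296), and without replicate 3 it was 0.16 (q = 0.0415). Without NZO/HlLtJ replicates 2 and 3 in turn it stayed at -0.21 (q = 0.0157 and 0.0165).

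The C1q genes had another order of strains, with C57BL/6J at the top. C1qa, which encodes the A chain, gave 1.12, 1.20 and 1.11 cpm in C57BL/6J, 1.13, 0.988 and 1.12 cpm in A/J and 0.356, 0.334 and 0.379 cpm in CAST/EiJ. C57BL/6J and A/J overlapped, and the CAST/EiJ libraries lay below every other library, of which the lowest had 0.455 cpm. The intermediate strains were WSB/EiJ (0.907 ± 0.174 cpm), NOD/ShiLtJ (0.863 ± 0.137), PWK/PhJ (0.763 ± 0.0827), NZO/HlLtJ (0.742 ± 0.181) and 129S1/Svlmj (0.657 ± 0.183), and these did not differ from their neighbours beyond the spread. CAST/EiJ differed from each of the other strains in the pair contrasts, and its step from 129S1/Svlmj was the only one called in the order (limma Storey q = 0.00448). Its difference from the other seven was -0.46 (SE 0.06, 0.405-fold, q = 1.34e-06). The difference was 0.29 in C57BL/6J (1.49-fold, q = 0.000303) and 0.24 in A/J (1.39-fold, q = 0.00161). The A/J call ended without A/J replicate 1 (0.22, q = 0.0103) or replicate 3 (0.23, q = 0.0104), with little change in the difference.

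C1qb, for the B chain, ran in parallel with smaller differences. Its values were 0.959, 0.717 and 1.01 cpm in C57BL/6J, 0.813, 0.858 and 0.997 cpm in A/J and 0.343, 0.360 and 0.366 cpm in CAST/EiJ. The first 2 strains overlapped fully, while the CAST/EiJ values overlapped those of NZO/HlLtJ (0.521 ± 0.205 cpm) and 129S1/Svlmj (0.508 ± 0.179 cpm). NOD/ShiLtJ had 0.659 ± 0.208 cpm, WSB/EiJ 0.658 ± 0.104 cpm and PWK/PhJ 0.472 ± 0.0742 cpm. No neighbours in the order were called apart, and the 8 pairs called set C57BL/6J and A/J each above NZO/HlLtJ, 129S1/Svlmj, PWK/PhJ and CAST/EiJ. The differences from the other seven were 0.27 in C57BL/6J (limma Storey q = 0.00260), 0.27 in A/J (q = 0.00278) and -0.28 in CAST/EiJ (0.542-fold, q = 0.00206). Each of these calls ended without some single library, while the differences changed little. Without C57BL/6J replicates 1 and 3 in turn the difference was 0.24 (q = 0.0157) and 0.23 (q = 0.0224), without A/J replicate 3 it was 0.23 (q = 0.0226), and without CAST/EiJ replicate 1 it was -0.27 (q = 0.0104).

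C1qc, for the C chain, differed most among the 9 genes on the log2 scale. The C57BL/6J libraries held 1.07, 1.02 and 0.926 cpm, the A/J libraries 0.773, 0.923 and 0.902 cpm, and the 129S1/Svlmj libraries 0.520, 0.747 and 0.686 cpm. NOD/ShiLtJ gave 0.473, 0.645 and 0.488 cpm, NZO/HlLtJ 0.512, 0.417 and 0.502 cpm, and WSB/EiJ 0.424, 0.279 and 0.3299 cpm. At the bottom were PWK/PhJ, with 0.306, 0.290 and 0.114 cpm, and CAST/EiJ, with 0.178, 0.0771 and 0.248 cpm. The C57BL/6J libraries were above all others by a narrow margin, each strain overlapped or nearly reached its neighbour, and the 3 wild-derived strains filled the lower end. From the highest strain mean (1.01 ± 0.0739 cpm) to the lowest (0.168 ± 0.0860 cpm) the ratio was 6.00. No step between neighbours was called, although 18 of 28 pairs were. The differences from the other seven were 0.47 in C57BL/6J (SE 0.06, 2.15-fold, limma Storey q = 1.78e-07), 0.35 in A/J (1.77-fold, q = 1.06e-05), -0.43 in CAST/EiJ (0.285-fold, q = 7.12e-07) and -0.33 in PWK/PhJ (0.409-fold, q = 1.85e-05). The WSB/EiJ difference (-0.19, q = 0.00331) was not called without WSB/EiJ replicate 2 (-0.16, q = 0.0263) or 3 (-0.19, q = 0.0149), or with a pseudocount of 0.1 (q = 0.0251). 129S1/Svlmj, where C1qa was among the lowest, had the third highest C1qc, and its difference from the other seven (0.15, q = 0.0168) was not called.

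The C1q genes were set against each other as ratios within each library. The cpm ratio of C1qc to C1qa, which is not adjusted for length, was 1.01 ± 0.116 in 129S1/Svlmj, 0.881 ± 0.0669 in C57BL/6J and 0.808 ± 0.124 in A/J. It was 0.659 ± 0.121 in NZO/HlLtJ, 0.619 ± 0.0167 in NOD/ShiLtJ and 0.462 ± 0.215 in CAST/EiJ. WSB/EiJ had 0.382 ± 0.0610 and PWK/PhJ 0.321 ± 0.165, and their libraries (at most 0.445) lay below those of 129S1/Svlmj, C57BL/6J and A/J (at least 0.686). The ratio of C1qb to C1qa ranged less, from 0.628 ± 0.141 in PWK/PhJ to 1.00 ± 0.0655 in CAST/EiJ, and most strains overlapped. No test was made of either ratio, and both were singled out after the values were seen.

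The C1q genes were also set against the other 6 members within each library. The ratio of the summed cpm of C1qa, C1qb and C1qc to that of the other 6 was 0.540 ± 0.0506 in C57BL/6J, with libraries from 0.491 to 0.592, and 0.209 ± 0.0216 in CAST/EiJ, with libraries from 0.193 to 0.233. In the strains between, the means ran from 0.279 ± 0.0137 in PWK/PhJ to 0.363 ± 0.00700 in WSB/EiJ, and single libraries from 0.265 to 0.411. C57BL/6J lay above and CAST/EiJ below every library of the other strains. On the log2 scale of the ratio C57BL/6J differed from the mean of the other seven by 0.82 and CAST/EiJ by -0.75, and leaving out any 1 library kept these between 0.75 and 0.89 and between -0.83 and -0.70. A/J, which had the highest sum of the other 6 (8.07 ± 0.239 cpm) and a C1q sum of 2.83 ± 0.165 cpm, had a middling ratio of 0.352 ± 0.0303. C57BL/6J had the highest C1q sum, 3.05 ± 0.102 cpm, with 5.67 ± 0.478 cpm for the other 6. This ratio is given as a description, and genes of border macrophages other than Lyve1 had the same highest and lowest strain, as given further on.

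**Figure D3:**
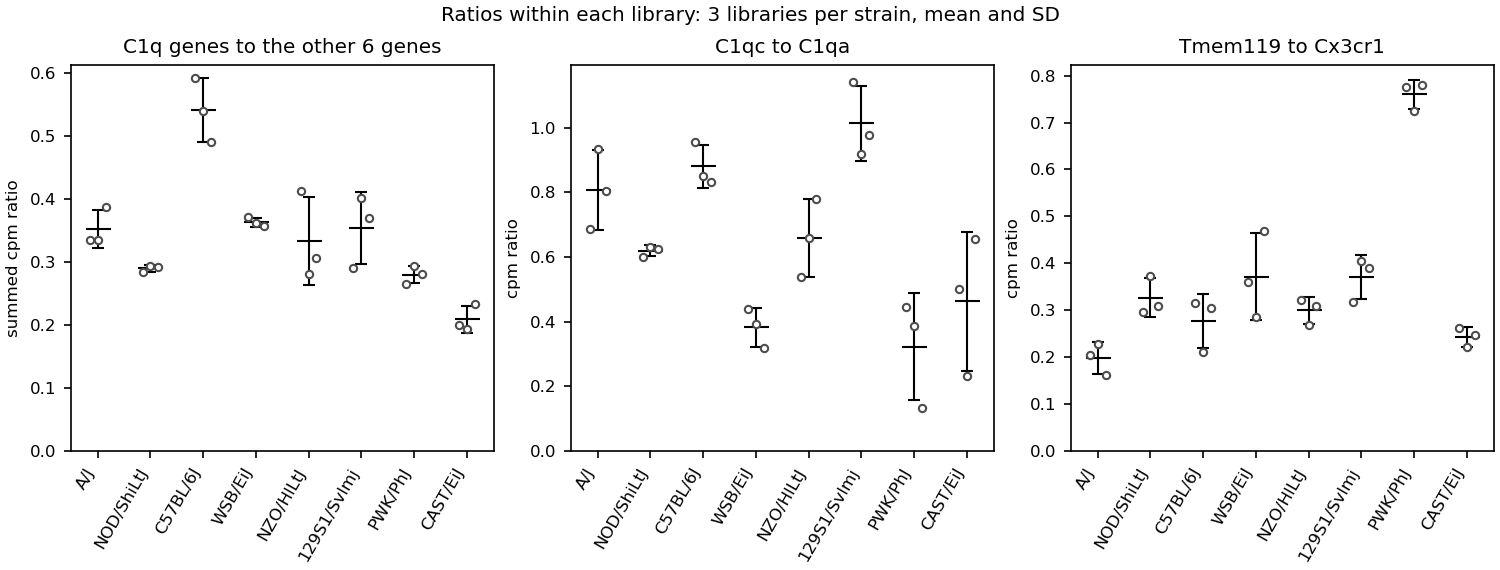
Ratios of cpm within each library (vertical axes) by strain (horizontal axes), with 1 open circle per library and bars for the mean and SD of 3 libraries: the summed C1q genes to the other 6 genes, C1qc to C1qa, and Tmem119 to Cx3cr1. C57BL/6J stands highest in the first panel at 0.491 to 0.592, and PWK/PhJ stands apart in the third at 0.725 to 0.780.

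Tmem119 encodes a membrane protein used as a marker of resident microglia, with PWK/PhJ as its highest strain, as for no other member, and CAST/EiJ as its lowest, as for the C1q genes, Csf1r and Trem2. The values were 0.581, 0.495 and 0.554 cpm in PWK/PhJ and 0.219, 0.167 and 0.222 cpm in CAST/EiJ. PWK/PhJ, which was lowest for Cx3cr1, was highest here and overlapped only WSB/EiJ (0.394 ± 0.136 cpm), and CAST/EiJ lay under every other library by a narrow margin. NOD/ShiLtJ had 0.414 ± 0.0388 cpm, and A/J, C57BL/6J, 129S1/Svlmj and NZO/HlLtJ had means of 0.341, 0.333, 0.327 and 0.294 cpm. In the fit with no filter PWK/PhJ exceeded the other seven by 0.22 (1.65-fold, limma Storey q = 0.000264), where 17.3% of all genes were called higher, and CAST/EiJ differed by -0.19 (0.537-fold, q = 0.000827), where 17.9% were called lower. Of its 28 pairs 7 were called, against 19.1% of such tests. The cpm ratio of Tmem119 to Cx3cr1, singled out after the values were seen, was 0.760 ± 0.0305 in PWK/PhJ (0.725 to 0.780), and no library of another strain exceeded 0.469. Set against P2ry12 instead, Tmem119 did not separate PWK/PhJ (0.409 ± 0.0703), and the mean was higher in WSB/EiJ (0.417 ± 0.151).

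Trem2, a receptor for lipids and lipoproteins that signals through the adaptor Tyrobp, and Aif1, which encodes the calcium-binding protein Iba1, were both highest in NOD/ShiLtJ. There Trem2 had 0.368, 0.416 and 0.405 cpm and Aif1 0.158, 0.188 and 0.237 cpm. For Trem2 A/J followed at 0.347 ± 0.0742 cpm with overlapping libraries, and CAST/EiJ was lowest at 0.140 ± 0.0497 cpm. For Aif1 PWK/PhJ followed at 0.152 ± 0.0461 cpm, and 129S1/Svlmj was lowest at 0.0532 ± 0.0237 cpm, close to the level of 3 reads. One A/J library had 0.170 cpm of Aif1 and the others 0.0487 and 0.0476 cpm, so A/J overlapped NOD/ShiLtJ as well. The NOD/ShiLtJ differences from the other seven were 0.20 for Trem2 (1.83-fold, limma Storey q = 0.00123) and 0.14 for Aif1 (2.30-fold, q = 0.000444), where 10.7% of all genes were called higher. For Trem2 4 of 28 pairs were called and for Aif1 5, no more than the share of all such tests. The Trem2 differences in A/J (0.14, q = 0.0143) and CAST/EiJ (-0.13, q = 0.0188) had the direction of the tested members without being called. Without the 2 libraries richest in lens RNA, of which 1 is a NOD/ShiLtJ library, the Trem2 difference there was 0.19 and had q = 0.0109.

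At these read numbers counting error was a large part of the spread between libraries of a strain. The SD within strains was 10.3% of the mean for Csf1r, of which counting alone gives 7.58%, and 10.5% for Cx3cr1, where counting gives 11.7%. For P2ry12 the values were 12.97% and 10.3%, for C1qa 15.8% and 13.5%, for C1qc 16.4% and 16.7% and for C1qb 23.4% and 15.5%. Tmem119 had 19.4% against 20.4%, Trem2 29.6% against 24.7% and Aif1 40.2% against 38.6%. The SD was thus below that of counting alone for Cx3cr1, C1qc and Tmem119 and above it for the other 6, and these differences were not tested.

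The members were compared with each other on the log2(cpm + 1) scale over 24 libraries, as a description, since libraries of a strain share its genotype. C1qa and C1qb had a Pearson correlation of 0.779 (Spearman 0.780), C1qb and C1qc of 0.719 (0.680) and C1qa and C1qc of 0.709 (0.703). Cx3cr1 and Csf1r stood at 0.796 (0.765), Csf1r and Trem2 at 0.677 (0.730) and Cx3cr1 and P2ry12 at 0.524 (0.375). Over the 8 strain means these pairs reached 0.643 for the last and up to 0.937 for C1qa and C1qb, while within strains the same pairs had 0.289 for C1qa and C1qb and -0.335 for Cx3cr1 and P2ry12. Of the 36 member pairs 28 had a higher correlation over strain means than within strains, and 8, each with Tmem119 or Aif1, a higher one within strains, such as Cx3cr1 and Tmem119 (0.607 within strains, -0.0845 over strain means). C1qb and Csf1r were correlated within strains too (0.608). Tmem119 and Cx3cr1 had 0.030 over the libraries, and C1qc and Aif1 had -0.240. The pairs named are examples, and single weak values among them are not read.

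Among 16394 other genes, the 10 most like the group were found by their correlation with the mean of the 9 members' standardized log2(cpm + 1) over 24 libraries. They were Rnf123 (Pearson 0.901, Spearman 0.890), Smtn (0.895), Tbc1d8 (0.891), Khdrbs3 (0.871), Plpp3 (0.863), Afap1 (0.861), the long noncoding RNA gene Gm17231 (0.860), Atf3 (0.856), Hexdc (0.854) and Slc5a5 (0.850). None of them is in the marker and pathway lists used here. Over the 8 strain means Rnf123 had 0.935, and within strains 0.597. Within strains Khdrbs3 (-0.0289), Slc5a5 (0.0187) and Afap1 (0.0681) had almost no correlation, and Hexdc had the highest (0.668). A total of 411 genes had a value over 0.7.

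Position in the genome links the C1q genes. On GRCm38 they lie on the reverse strand of chromosome 4 next to each other: C1qb at chr4:136880129-136886187 (ENSMUSG00000036905), C1qc at chr4:136889804-136893065 (ENSMUSG00000036896) and C1qa at chr4:136895917-136898803 (ENSMUSG00000036887). The others are spread over the genome: Cx3cr1 at chr9:119901616-120069879 (ENSMUSG00000052336, reverse), P2ry12 at chr3:59216272-59262871 (ENSMUSG00000036353, reverse), Csf1r at chr18:61100598-61132149 (ENSMUSG00000024621, forward) and Tmem119 at chr5:113793729-113800516 (ENSMUSG00000054675, reverse). Aif1 lies at chr17:35170991-35176068 (ENSMUSG00000024397, reverse) and Trem2 at chr17:48346401-48354147 (ENSMUSG00000023992, forward). Of the exon bases of Csf1r 873 (15.1%) are shared with Hmgxb3 on the opposite strand, which had a mean of 20.54 cpm. Hmgxb3 was highest in PWK/PhJ (23.0 ± 0.664 cpm) and lowest in C57BL/6J (19.0 ± 1.46 cpm), an order unlike that of Csf1r. P2ry12 shares 9 exon bases with Med12l (26.2 cpm, highest in PWK/PhJ at 30.8 ± 2.77 and lowest in NOD/ShiLtJ at 22.6 ± 0.562). Med12l was called higher in PWK/PhJ (q = 4.97e-06) and, like P2ry12, in A/J (q = 0.00295), but lower in NOD/ShiLtJ (q = 2.82e-05), where P2ry12 was higher. Cx3cr1 shares 78 exon bases (1.73%) with the antisense gene Gm33858 (0.0125 cpm), and its annotated span holds further genes, among them Gorasp1, Ttc21a, Csrnp1 and Xirp1, with no shared exon base. The libraries were made with a stranded kit, but the study does not say if counting was strand-specific. The effect of these overlaps was not tested.

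Not all other genes of microglia ordered the strains as the members did. The counts of called genes in this list and those that follow stand against the shares over all genes given above for each strain, and single calls in short lists are not read. Of the 12 further identity genes 4 were tested, and 3 passed the F-test with the Benjamini-Hochberg adjustment. Olfml3, for a secreted matrix protein, was lowest in A/J (1.64 ± 0.195 cpm) and highest in WSB/EiJ (5.34 ± 0.461 cpm). Entpd1, for an enzyme that breaks down extracellular ATP and ADP, was highest in 129S1/Svlmj (1.15 ± 0.423 cpm) and lowest in WSB/EiJ (0.324 ± 0.0588 cpm), and the secreted ribonuclease gene Rnase4 from 0.617 ± 0.151 cpm in PWK/PhJ to 0.299 ± 0.0636 cpm in WSB/EiJ. Over the list, 1 of 4 was called higher and 1 lower in A/J, 1 lower in CAST/EiJ, and 2 higher and 2 lower in WSB/EiJ. Of the 18 myeloid genes 2 were tested and both passed. Ctss, for the lysosomal protease cathepsin S, had 2.99 ± 0.260 cpm in WSB/EiJ and 1.54 ± 0.225 cpm in CAST/EiJ, and Inpp5d, for a phosphatase that restrains immune receptor signals, 2.12 ± 0.124 cpm in PWK/PhJ and 0.716 ± 0.107 cpm in 129S1/Svlmj. In A/J 1 of these was called higher, in CAST/EiJ 1 higher and 1 lower, and PWK/PhJ had 2 higher. NOD/ShiLtJ, where members were called higher, had 2 lower.

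The ligands and partners of the member receptors were taken from a list of 11 genes, of which 6 were tested and 6 passed the F-test with the Benjamini-Hochberg adjustment. Csf1, a ligand of the Csf1r receptor, was highest in A/J at 1.60 ± 0.0675 cpm and lowest in 129S1/Svlmj at 0.734 ± 0.161 cpm, and A/J exceeded the other seven by 0.37 (limma Storey q = 2.15e-05). Il34, the other ligand, ran from 1.10 ± 0.164 cpm in C57BL/6J to 0.693 ± 0.123 cpm in CAST/EiJ, where the difference was -0.21 (q = 0.00232). Cx3cl1, which encodes fractalkine, ran from 19.4 ± 1.03 cpm in A/J to 9.51 ± 1.10 cpm in CAST/EiJ. The Cx3cl1 difference was -0.78 in CAST/EiJ (q = 3.83e-06), and in A/J, where it was 0.32 (q = 0.0120), it was not called. PWK/PhJ, the strain lowest for Cx3cr1, had 19.3 ± 1.83 cpm of Cx3cl1, level with A/J, and WSB/EiJ had 18.6 ± 1.58 cpm. In CAST/EiJ, the strain lowest for Csf1r, Csf1 stood at 1.05 ± 0.0309 cpm (-0.02, q = 0.310). Il34, unlike Csf1r, was not highest in A/J, but like it was lowest in CAST/EiJ. No ligand thus kept to its receptor's order in each strain, and the relation was not tested. Tyrobp, the adaptor of Trem2, had a mean of 0.224 cpm, under the filter, with 0.334 ± 0.00858 cpm in PWK/PhJ and 0.128 ± 0.0308 cpm in 129S1/Svlmj. Tgfbr2, a subunit of the receptor for TGF-beta, a factor that maintains microglia, ran from 2.13 ± 0.208 cpm in NOD/ShiLtJ to 1.02 ± 0.134 cpm in CAST/EiJ. Nt5e, for the enzyme that makes adenosine from AMP, had 127 ± 4.15 cpm in PWK/PhJ and 84.6 ± 2.44 cpm in C57BL/6J. Of the 6 tested genes 4 were lower and 1 higher in CAST/EiJ, against 26.2% and 18.2% of all genes, and 1 was higher and 1 lower in A/J, against 15.7% and 13.1%, so that the counts of 1 are near the background.

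The complement genes around C1q followed different orders. The proteases that join C1q in the C1 complex were all under the filter: C1ra had a mean of 0.223 cpm (0.295 ± 0.109 in C57BL/6J, 0.0946 ± 0.0190 in NZO/HlLtJ) and C1s1 0.271 cpm (0.476 ± 0.0303 in C57BL/6J, 0.0890 ± 0.0756 in PWK/PhJ). Their copies C1rb and C1s2 had means of 0.0116 and 0.0516 cpm. Of 19 genes of the complement cascade 16 were in the table (C6, C9 and Cfd were not), 5 were tested, and 4 passed the F-test with the Benjamini-Hochberg adjustment. C4b, one of the genes for the C4 that C1 cleaves, was highest in A/J (6.27 ± 0.339 cpm) and lowest in WSB/EiJ (0.735 ± 0.0595 cpm). Its neighbour C4a ran from 3.86 ± 0.465 cpm in PWK/PhJ to 0.636 ± 0.127 cpm in C57BL/6J, and how reads were divided between these similar genes was not tested. Masp2, for a protease of the lectin pathway, had 2.34 ± 0.184 cpm in WSB/EiJ and 0.0803 ± 0.0268 cpm in NZO/HlLtJ, a ratio of 29.2. Cfp, for the stabilizer properdin, ranged only from 2.73 ± 0.334 cpm in WSB/EiJ to 1.77 ± 0.0484 cpm in PWK/PhJ. In A/J 3 of the 5 were higher and 1 lower, in CAST/EiJ 1 was higher and 1 lower, in PWK/PhJ 3 were higher and 1 lower, and in C57BL/6J, where the C1q genes were high, 2 were lower.

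Of 20 regulators and receptors of complement 14 were tested and 13 passed the F-test with the Benjamini-Hochberg adjustment. In CAST/EiJ 10 of 14 were called lower, against 26.2% of all genes, and 1 higher, and in PWK/PhJ 6 were lower, against 20.8%, and 3 higher. In WSB/EiJ 6 were called higher, against 12.3%, and 3 lower, in C57BL/6J 5 higher and 3 lower, and in A/J 3 higher. Cd59a, which blocks the membrane attack complex, ran from 8.87 ± 0.403 cpm in NOD/ShiLtJ to 2.18 ± 0.113 cpm in CAST/EiJ. Clusterin (Clu) ranged from 124 ± 12.7 cpm in A/J to 61.8 ± 5.60 cpm in CAST/EiJ. Csmd2 had 15.0 ± 1.03 cpm in PWK/PhJ and 7.37 ± 0.933 cpm in CAST/EiJ. Serping1, for the inhibitor of C1r and C1s, was chosen after its values were seen, because its extremes were those of the C1q genes: 1.86 ± 0.381 cpm in C57BL/6J and 0.484 ± 0.0224 cpm in CAST/EiJ.

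Genes that rise in activated microglia were taken from a list of 20, of which 18 were in the table (Cst7 and Ccl4 were not), 8 were tested and 7 passed with the Benjamini-Hochberg adjustment. Itgax, Ccl2, Ccl3, Il1b and Tnf each had a mean under 0.05 cpm. Lpl, for lipoprotein lipase, ran from 5.29 ± 1.00 cpm in PWK/PhJ to 1.08 ± 0.182 cpm in CAST/EiJ, and Gpnmb, also a gene of pigment cells, from 3.82 ± 0.785 cpm in A/J to 0.771 ± 0.0789 cpm in CAST/EiJ. Spp1, for osteopontin, had 4.22 ± 0.294 cpm in WSB/EiJ and 1.70 ± 0.339 cpm in NZO/HlLtJ, and Lgals3, for galectin-3, 1.10 ± 0.449 cpm in 129S1/Svlmj and 0.139 ± 0.0414 cpm in PWK/PhJ. In A/J 4 of the 8 were higher, against 15.7% of all genes, and 1 lower, against 13.1%. In CAST/EiJ 4 were lower (26.2% of all genes), in 129S1/Svlmj 4 higher (15.1%), and in NZO/HlLtJ and PWK/PhJ 3 each lower (14.1% and 20.8%). Several of these genes are also expressed by retinal neurons, glia or pigment cells.

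Markers of other cells and tissues moved with the members in part. Border macrophages, which express several members, were followed with 8 genes, of which Cd163, Pf4 and Ms4a7 had means under 0.05 cpm. Their sum was 13.03 ± 0.855 cpm in NOD/ShiLtJ, 10.2 ± 0.749 in A/J, 9.40 ± 0.533 in PWK/PhJ, 8.37 ± 0.401 in NZO/HlLtJ, between 7.35 and 7.41 in C57BL/6J, 129S1/Svlmj and WSB/EiJ, and 5.36 ± 0.183 in CAST/EiJ. Lyve1, which lymph vessels express too, made up most of it (11.1 ± 0.528 cpm in NOD/ShiLtJ, 4.62 ± 0.0854 in CAST/EiJ). Of the 2 tested, Lyve1 and Stab1 (1.36 ± 0.206 cpm in C57BL/6J, 0.656 ± 0.128 in CAST/EiJ), both passed with the Benjamini-Hochberg adjustment, and Mrc1 had 0.541 ± 0.258 cpm in C57BL/6J and 0.0266 ± 0.0132 cpm in CAST/EiJ. Without Lyve1, a sum taken after the values were seen, the other 7 genes had the highest and lowest strains of the C1q genes, with 2.42 ± 0.457 cpm in C57BL/6J and 0.743 ± 0.0979 cpm in CAST/EiJ. This sum was 1.90 ± 0.3704 cpm in NOD/ShiLtJ, 1.84 ± 0.644 in A/J, 1.65 ± 0.724 in 129S1/Svlmj, 1.03 ± 0.155 in PWK/PhJ, 0.954 ± 0.0604 in WSB/EiJ and 0.862 ± 0.186 in NZO/HlLtJ, and 6 of the 7 genes were highest in C57BL/6J and 5 lowest in CAST/EiJ. The part of such macrophages in the members' differences was not tested.

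Pigment epithelium, which borders the retina and can come away with it, was followed with 10 genes, of which 8 were tested and 8 passed with the Benjamini-Hochberg adjustment. Rgr was the most abundant and Best1 had a mean under 0.05 cpm. The sum was highest in WSB/EiJ, at 76.3 ± 22.4 cpm (61.3 to 102), A/J, at 61.0 ± 26.0 cpm (33.7 to 85.6), and 129S1/Svlmj, at 57.8 ± 5.07 cpm (53.3 to 63.3). It was 38.1 ± 14.3 cpm (29.2 to 54.5) in NOD/ShiLtJ, 37.0 ± 12.3 cpm (22.8 to 44.2) in C57BL/6J and 19.7 ± 4.35 cpm (15.6 to 24.2) in NZO/HlLtJ. PWK/PhJ had 17.6 ± 6.00 cpm (12.4 to 24.2) and CAST/EiJ 17.3 ± 1.89 cpm (15.2 to 18.9). The 4 genes that differed most were Ttr (23.6 ± 5.65 cpm in WSB/EiJ, 4.47 ± 1.95 in PWK/PhJ), Pmel, Rgr and Dct. Of the 8 tested, 6 were higher in WSB/EiJ (12.3% of all genes) and 4 each in A/J (15.7%) and 129S1/Svlmj (15.1%), while 7 were lower in PWK/PhJ (20.8%) and 4 each in CAST/EiJ (26.2%) and NZO/HlLtJ (14.1%). WSB/EiJ and PWK/PhJ, at the opposite ends of these counts, each had 2 members called lower. A/J, with a high sum, had 6 members called higher, and CAST/EiJ, with the lowest sum, had 6 called lower. 129S1/Svlmj, also with a high sum, had 1 called lower, as had NZO/HlLtJ with a low sum. The relation between the order of strains in this sum and that in the members was not tested. With the log2 of this sum as a covariate, an alternative chosen after the data were seen, the members called lower in CAST/EiJ dropped from 6 to 3. The differences that were no longer called in CAST/EiJ were those of C1qb (-0.15, limma Storey q = 0.128), Csf1r (-0.20, q = 0.0390) and P2ry12 (-0.15, q = 0.108). In A/J only C1qb (0.17, q = 0.0739) lost its call, and the same fit ended the calls of Csf1r in NZO/HlLtJ (-0.12, q = 0.111) and Cx3cr1 in 129S1/Svlmj (-0.13, q = 0.0669). For Tmem119 the differences stayed about as large while q passed the limit, with -0.21 in CAST/EiJ (q = 0.0110, against -0.19 without the covariate) and 0.20 in PWK/PhJ (q = 0.0183, against 0.22). Strain and pigment epithelium sum vary together, and their parts cannot be told apart beyond this fit.

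Lens RNA was uneven within strains. The sum of 11 lens genes, led by Cryaa, was 1725 cpm in 1 129S1/Svlmj library, 2063 cpm in 1 NOD/ShiLtJ library and 234 cpm in 1 C57BL/6J library, and between 6.15 and 95.6 cpm in the others. Each of the 11 was tested, with Cryba1, Cryaa, Crybb2 and Crygb differing most. By the Benjamini-Hochberg adjustment of the limma F-test none passed, and none had an unadjusted p under 0.05, although 11 had a Storey q under 0.01. Leaving out the 2 libraries over 1000 cpm together ended no call of the members but that of Trem2 given above. Red blood cell genes, 5 in all with Hbb-bs the most abundant, summed to 28.4 ± 3.43 cpm in NOD/ShiLtJ, 22.7 ± 1.94 in A/J and 20.8 ± 6.03 in 129S1/Svlmj. The sum was 19.7 ± 1.55 cpm in NZO/HlLtJ, 17.6 ± 9.15 in C57BL/6J, 14.7 ± 1.18 in WSB/EiJ, 14.7 ± 7.16 in PWK/PhJ and 12.3 ± 1.05 in CAST/EiJ. Of the 4 tested (Hba-a2, Hba-a1, Hbb-bt and Hbb-bs) 3 passed with the Benjamini-Hochberg adjustment, and the part of blood in the members' differences was not tested.

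Of the 15 genes of retinal neurons and Müller glia 14 were tested and 13 passed with the Benjamini-Hochberg adjustment, and Arr3, Sag and Grm6 were among those that differed most. In A/J 4 were higher and 4 lower, and in CAST/EiJ 3 were higher and 5 lower. Of 8 genes of astrocytes and vessels 7 were tested and 6 passed, and Kdr was the most abundant. Gfap ran from 12.3 ± 2.35 cpm in A/J to 2.73 ± 0.430 cpm in WSB/EiJ, Rgs5 from 29.3 ± 5.42 cpm in WSB/EiJ to 8.74 ± 1.73 cpm in CAST/EiJ, and Acta2 from 2.32 ± 0.877 cpm in A/J to 0.661 ± 0.187 cpm in CAST/EiJ. Of these 7 genes 3 were higher in A/J, and 4 were lower and 1 higher in CAST/EiJ. In C57BL/6J 3 were higher, against 14.0% of all genes, and 1 lower. Cldn5, chosen after its values were seen, had the extremes of the C1q genes. It had 3.32 ± 0.527 cpm in C57BL/6J and 1.47 ± 0.218 cpm in CAST/EiJ. Kdr lay the other way, highest in CAST/EiJ (97.5 ± 4.25 cpm, limma Storey q = 3.03e-09) and called lower in C57BL/6J (59.5 ± 1.28 cpm, q = 1.28e-05). Pecam1 was highest in C57BL/6J (4.40 ± 0.295 cpm) and lowest in PWK/PhJ (2.01 ± 0.0957 cpm), with CAST/EiJ at 2.04 ± 0.180 cpm. The part of vessels in the members' differences was not tested. Of 5 sex-linked genes none passed the limma F-test, at an unadjusted p under 0.05 or with either adjustment. Xist was high in 1 library each of 129S1/Svlmj, C57BL/6J, CAST/EiJ and PWK/PhJ, where strain means were 302 to 360 cpm, and at most 1.25 cpm on average in the other strains. A covariate for Xist ended none of the members' calls.

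The 250 bases before each gene's RefSeq start were searched for letters that PU.1, a myeloid lineage factor, and AP-1 are known to bind. Promoters of 6 of the 9 genes are in the RefSeq promoter table (GRCm38.p6), those of Cx3cr1, P2ry12, C1qb, C1qc, Aif1 and Trem2, and those of C1qa, Csf1r and Tmem119 are not. In the GENCODE annotation, which places some starts elsewhere, each of the 250 bases of Cx3cr1 lies in an exon of Cx3cr1 itself and each of those of P2ry12 in an exon of Med12l, as do 151 bases of C1qc and 16 of Aif1 in exons of their own genes. On either strand, GAGGAA was found in 4 of the 6 (C1qb, C1qc, Aif1 and Trem2), against 23.3% of 32851 promoters of the same length. The Aif1 match lies 7 bases before the start, within the 16 bases that GENCODE places in its exon. The longer GAGGAAGT, which contains it, was found in C1qc alone, against 2.44% of promoters, and TGACTCA in none of the 6, against 4.46%. The stretches of C1qb (chr4:136886201-136886450, reverse strand), C1qc (chr4:136893066-136893164, reverse strand, the 99 bases farthest from the start) and Trem2 (chr17:48346151-48346400, forward strand) are shown as examples of genes with a match. Capitals mark the matches, as GAGGAA 30 bases before the start in C1qb, as the reverse complement of GAGGAAGT 195 bases before it in C1qc, and as the reverse complement of GAGGAA 40 bases before it in Trem2. A match describes the reference sequence, and the strains' own sequences were not read. A link between these matches and the differences between strains was not tested.
C1qb: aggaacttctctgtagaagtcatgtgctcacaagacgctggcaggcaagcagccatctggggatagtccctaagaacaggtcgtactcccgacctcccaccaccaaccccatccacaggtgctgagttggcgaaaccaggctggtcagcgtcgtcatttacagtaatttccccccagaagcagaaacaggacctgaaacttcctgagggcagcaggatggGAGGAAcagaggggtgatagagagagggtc
C1qc: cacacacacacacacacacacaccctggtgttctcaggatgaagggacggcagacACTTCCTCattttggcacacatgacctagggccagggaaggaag
Trem2: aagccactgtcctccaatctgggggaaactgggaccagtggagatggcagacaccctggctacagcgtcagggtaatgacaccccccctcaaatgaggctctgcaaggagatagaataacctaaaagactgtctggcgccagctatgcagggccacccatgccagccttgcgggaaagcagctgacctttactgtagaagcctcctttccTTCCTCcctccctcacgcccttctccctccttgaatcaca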

How the data were processed

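Retinal RNA of 24 libraries was used as deposited. The authors trimmed bases under quality 34, aligned reads to GRCm38/mm10 with STAR, quantified genes with Partek's expectation-maximization model, divided by total reads and added 0.0001, and the deposited unit is cpm. All strains were aligned to this one reference, which is based on C57BL/6J, and the effect on single genes was not tested. The methods name RefSeq, while the table carries Ensembl-type gene sources; 96.7% of genes matched GENCODE M21 by symbol, chromosome, start and strand. A library's values sum to 332472 to 366570 cpm, and 3 reads correspond to 0.0384 to 0.0521 cpm. Counts were not modelled, because 90.5% to 92.2% of low values were whole reads within 0.1.

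limma 3.58.1 in R 4.3.3 was fitted to log2(cpm + 1) (lmFit, eBayes with a trend, two-sided) with 1 mean per strain. The F-test, 8 contrasts with the other seven strains and 28 pairs were each adjusted with Storey's q (limit 0.01) over all genes and contrasts together. No paired analysis was possible because the labels give no replicate numbers shared between strains. The study pooled libraries for sequencing in a randomized complete block design, but the labels do not give the blocks, so none was fitted. The fit was tested on simulated data. Alternatives were a pseudocount of 0.1, no filter, a filter at a mean of 5 cpm, median-ratio, quantile and equal-sum scaling, the Benjamini-Hochberg adjustment, a limit of 0.05, no trend, an Xist covariate and leaving out each library. A pigment epithelium covariate, and leaving out the 2 libraries richest in lens RNA, were chosen after seeing the data. The members and lists were chosen with earlier results of these data known. Named genes are the members, up to 4 tested genes per list with the largest difference between strain means, the C1 complex genes, Csf1, Il34, Cx3cl1 and Tyrobp, the 10 most correlated genes and genes that overlap members. Some genes of the lists are not reported here by name. The SD given for counting alone covers the number of reads only. The lists hold genes of microglia identity, the myeloid core, receptor partners, the complement cascade, complement regulators and receptors, activated microglia, border macrophages, monocytes and lymphocytes, red blood cells, lens, pigment epithelium, retinal neurons and Müller glia, astrocytes and vessels, and sex-linked genes.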

Additional observations from a re-analysis of the deposited data

How the results depend on the processing

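Of 28 named member contrasts, the settings other than leaving out a library gave 284 values that kept direction and side of the limit and 20 with the same direction that were no longer called, and leaving out each library gave 652 and 20; none turned direction. With a mean of at least 5 cpm no member is left, and the strain difference was called for 9218 genes, strain against the other seven in 24674 tests and pairs in 81934 tests, against 15948, 42516 and 138501, because fewer genes were tested. With the pigment epithelium covariate the members' calls of lower fell from 12 to 7, and those in CAST/EiJ from 6 to 3; the cause was not tested. The Benjamini-Hochberg adjustment ended the calls of Csf1r (0.0120) and Cx3cr1 (0.0187) in NOD/ShiLtJ, Cx3cr1 in 129S1/Svlmj (0.0182) and P2ry12 in CAST/EiJ (0.0109), no filter the first 3 of these (q 0.0101, 0.0134 and 0.0131), quantile normalization those of Cx3cr1 in NOD/ShiLtJ (0.0108) and P2ry12 in CAST/EiJ (0.0156), and equal-sum scaling that of Cx3cr1 in NOD/ShiLtJ (0.0112). Leaving out each library in turn gave 15541 to 16361 genes, 39724 to 42971 and 128453 to 139075 tests, 6 to 6 members in the F-test, 69 to 83 member pair calls (78 with all libraries), 10 to 13 higher and 10 to 12 lower member calls, 4 to 6 members higher in A/J, 4 to 6 lower in CAST/EiJ, and log2 C1q ratio differences between 0.75 and 0.89 (C57BL/6J) and between -0.83 and -0.70 (CAST/EiJ). Depth limits Aif1, Trem2 and Tmem119 most, with medians of 6, 16 and 22.5 reads.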
